A study of Mus musculus with 24 samples.

Results

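Gene expression was compared between the striatum of mice with both huntingtin alleles replaced by the Q111 knock-in allele (HdhQ111/HdhQ111, called Q111) and the striatum of mice with both alleles normal (Hdh+/Hdh+, called wild type). All 12 striatum arrays were used of the 24 in the series: 6 Q111 and 6 wild-type arrays, numbered 1 to 6 in each genotype. The other 12 arrays are cerebellum from the same genotypes, and they enter only where a difference between tissues is tested. Of 45037 probe sets on the array that are not controls, 19528 had a mean of 4 or more on the log2 scale over the 12 striatum arrays. Of these, 17484 carry a single gene symbol and stand for 10378 genes, each gene represented by its brightest probe set.

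The labels give the genotypes, the tissue and an age between 3 and 10 weeks, with no age or sex for a single array. The wild-type mice are labelled Q7/Q7. The numbered arrays are called biological replicates, but separate mice or pools are not named, so every p-value below measures the spread between these RNA samples. The knock-in sits in the mouse's own huntingtin gene, so its own promoter drives the mutant protein in every tissue, and no heterozygous animals were compared.

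Huntingtin is a large scaffold protein used in vesicle transport, transcription and autophagy, and an expanded glutamine tract near its start causes Huntington's disease. The striatum is the region that degenerates most. Nearly all of its neurons are inhibitory projection neurons: the direct pathway type carries the dopamine receptor Drd1, and the indirect pathway type carries Drd2 and the enkephalin precursor Penk. Homozygous Q111 mice of this age are studied as a model of early events, before neurons are lost.

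The 12 arrays were alike in overall signal, with medians of 3.38 to 3.51, and correlations between arrays of 1 genotype ran from 0.980 to 0.990. The tissue label was borne out by the defining genes of striatal projection neurons. Ppp1r1b, the dopamine-regulated phosphatase inhibitor DARPP-32, stood at 12.57 ± 0.36 in wild type and 12.48 ± 0.25 in Q111 (SD, n = 6 each). Choroid plexus genes varied widely in both genotypes. The transthyretin gene Ttr ran from 11.91 to 16.33 over the arrays. Xist, which is expressed in females, was above a value of 6 in 3 wild-type and 2 Q111 arrays. The 3′ minus 5′ difference of the control probe sets, a measure of RNA integrity, was 0.46 ± 0.08 in wild type and 0.52 ± 0.11 in Q111 (exact two-sided permutation p = 0.262). Its actin part alone was 1.17 ± 0.11 and 1.37 ± 0.12 (exact p = 0.0173). With the difference as a covariate in the main test described below, 116 genes were called, 105 of them among its 232 calls. Because the tissue is a mixture, fewer cells of a type and less RNA per cell cannot be told apart in any result below.

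The huntingtin transcript itself, Htt, did not mark the genotypes. Its brightest probe set read 7.83 ± 0.15 in wild type and 7.83 ± 0.13 in Q111 (exact two-sided permutation p = 0.961). The second probe set gave 6.27 ± 0.20 and 6.30 ± 0.14 (exact p = 0.784), and the third 5.70 ± 0.29 and 5.82 ± 0.46 (exact p = 0.61). The array measures the amount of transcript and not the length of the repeat, so it gives no check of the genotype labels. Among the 30 measured genes nearest to Htt, 15 on each side, the median difference was 0.00. Rgs12, which stops G protein signals, rose by 0.71 there without the replicate set described below in the model (limma adjusted p = 0.0459, 0.0722 with it), and Gm1673 was the only other call, a fall. That is 1 rise and 1 fall among the 30, against 2.24% of all genes called in the main test described below.

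A modest set of genes differed between the genotypes, and more fell than rose over all 12 arrays as deposited, though not after median centring of the arrays or in the arrays numbered 4 to 6 alone. Tested with limma and adjusted by Benjamini-Hochberg over the 19528 probe sets, 499 probe sets (2.56%) had an adjusted p under 0.05, the threshold for a call throughout: 145 were higher in Q111 (0.743%) and 354 lower (1.81%). The lower ones made up 70.9% of the calls, against 55.8% after quantile normalisation and 47.9% after median centring. As deposited, the arrays numbered 4 to 6 alone gave 736 calls, 415 higher and 321 lower, and those numbered 1 to 3 alone 95, 30 higher and 65 lower. Counted by brightest probe set, 232 of 10378 genes were called (2.24%): 83 were higher in Q111 (0.8%) and 149 lower (1.44%). A gene's call below, and each count of calls in a list, rests on the brightest probe set unless another is named. Of the 232 genes 114 had several kept probe sets, and 34 had another of opposite sign. Most changes were small. The median size of a called difference was 0.44, 23 higher and 34 lower genes changed at least 1.5-fold, and 5 higher and 7 lower genes at least 2-fold. The groups of 6 did not overlap for 160 of the 232 genes, and for 256 of all genes (2.47%), or 2.48% of probe sets. Over all measured genes the median difference was -0.03 and 41.6% were higher in Q111. These values and the 2.24% called are what each list of genes is to be held against.

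The genotype differences seen in the arrays numbered 1 to 3 and in those numbered 4 to 6 were unlike. A second model carried this replicate set as a term. The mean levels of the sets hardly differed: over probe sets the SD of the difference between them was 0.0538. The term therefore had little to remove from the values as deposited, and it does not model a genotype difference that changes between sets. A call lost or kept with it is no measure of a set effect. Same-numbered arrays of the genotypes had correlations of -0.414 to -0.081 between their deviations. Whether the set means had been levelled before deposit was not tested. If they had, the model without the set understates the spread and calls too many genes. The labels do not say what the numbers stand for. With the set in the model 229 probe sets (1.17%) and 95 genes (0.915%) were called, 34 genes higher (0.328%) and 61 lower (0.588%), and all 95 lay among the 232. All 232 called genes had the same sign in numbers 1 to 3 as in numbers 4 to 6, which calling them on all 12 arrays largely fixes, so it is no sign of stability. Over all 10378 genes the differences seen in the sets were unrelated: 50.4% had the same sign and Pearson's r across genes was -0.009, a description across genes that are not independent replicates. A gene is described as called in both models where it passed the threshold with and without the set.

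**Figure D1:**
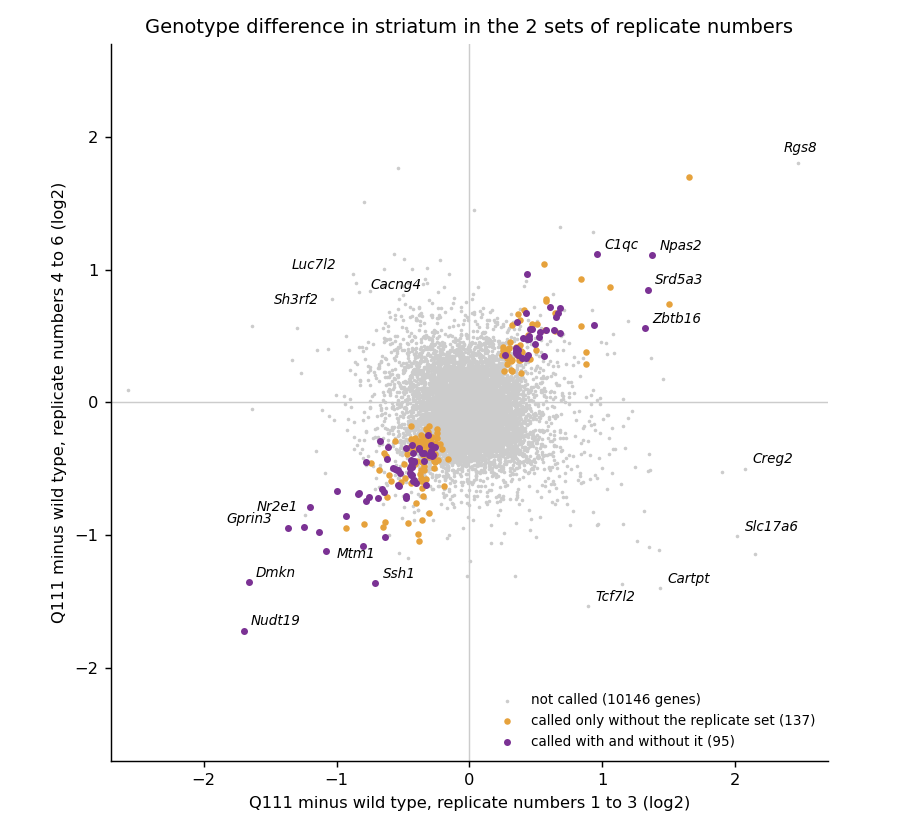
Each point is a gene, with its Q111 minus wild-type difference in the arrays numbered 1 to 3 on the x axis and in those numbered 4 to 6 on the y axis (log2 units). Colours separate the 95 genes called in both models, the 137 called only without the replicate set and the 10146 not called. Called genes lie at the lower left and upper right because they were called on all 12 arrays; over all genes r was -0.009.

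Of the 82 called genes named by the rule used here, 46 were called in both models, and 42 of those kept their call in the model without the set whichever array was left out. The exceptions were Gabra5, Gsdme, Malat1 and Atp5g1. None of the 36 genes called only without the set kept its call in every such fit. Each lost it on leaving out any 1 of 5 to 11 of the 12 arrays, although the adjusted p then stayed at or below 0.116. With the set in the model only 16 of the 46 kept their call whichever array was left out: Nudt19, Pank1, Mtm1, Nr2e1, Ets1, Gprin3, Fam184b, Prkd3, Cav1, Cldn5, Slc30a10, Npas2, C1qb, Srd5a3, Rab27b and Trp53i11. The other 30 lost it in at least 1 such fit, 28 of them without Q111 array 6 and 22 without wild-type array 4. Among them were C1qa (adjusted p up to 0.0787), C1qc (0.059), Dmkn (0.071), Sbsn (0.0545), Per3 (0.0607), Jun (0.0511), Cox5b (0.0904) and Hsp90b1 (0.0985). Genes called only without the set are marked below as called in the first model only.

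The clearest change was in Nudt19, a peroxisomal enzyme of the Nudix family that cleaves coenzyme A. Its level ran from 8.44 to 8.73 in the wild-type arrays, with a median of 8.58, and from 6.73 to 7.08 in the Q111 arrays, with a median of 6.88. The gap between the groups was several times the width of either. Nudt19 fell by 1.71 on the log2 scale (SE 0.07, adjusted p = 1.1e-07, or 8.29e-07 with the set), a 3.27-fold change, and it was -1.70 and -1.72 in the 2 sets. A second Nudt19 probe set read -0.99.

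Pank1, the pantothenate kinase that starts coenzyme A synthesis, fell as well. It ran from 6.54 to 6.92 in wild type (median 6.68) and from 5.82 to 6.15 in Q111 (median 5.98), without overlap. The difference was -0.70 (SE 0.08, adjusted p = 0.00189, or 0.00458 with the set); another of its 3 probe sets had the opposite sign. These were the 2 called members of 25 measured genes of coenzyme A turnover and the Nudix family, against 2.24% called of all genes. Of the 25, 17 were lower and 32% were higher, against 41.6% higher of all genes. The list's median was -0.06 against -0.03 for all genes.

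Mtm1, the myotubularin phosphatase that removes a phosphate from phosphoinositides of the endosome, was abundant and fell about as clearly. Wild-type arrays read 10.25 to 10.89 (median 10.60) and Q111 arrays 9.10 to 9.84 (median 9.54). The lowest wild-type array lay above the highest Q111 array. The difference was -1.10 (SE 0.13, adjusted p = 0.00186, or 0.00458 with the set), while 1 of its 3 probe sets had the opposite sign at 0.15. Among 35 measured phosphoinositide phosphatases and kinases the only other call was Dgkz, a diacylglycerol kinase, at 0.39 in the first model only (adjusted p = 0.0352, 0.0603 with the set), and the list's median was -0.01.

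Several transcriptional and signalling genes fell by about 2-fold. Nr2e1, an orphan nuclear receptor of neural stem cells, ran from 7.15 to 7.74 in wild type (median 7.43) and from 6.22 to 6.89 in Q111 (median 6.38), a difference of -0.99 (SE 0.13, adjusted p = 0.00377, or 0.00797 with the set). Ets1, an ETS family factor, ran from 5.65 to 6.43 (median 5.94) and from 4.58 to 5.39 (median 4.98), a difference of -1.05 (SE 0.16, adjusted p = 0.00678, or 0.0129). Neither gene's groups overlapped. Ssh1, the slingshot phosphatase that activates the actin-severing protein cofilin, was dim in both groups, at 4.68 to 5.66 (median 5.19) against 3.77 to 4.62 (median 4.19), and fell by 1.03 (SE 0.18, adjusted p = 0.0119, or 0.0189). By brightest probe set it was the only call among 25 cofilin pathway genes, whose median was -0.03. Another probe set was called for Pak3 (0.56).

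Further falls called in both models were smaller. Rgl1, an exchange factor for the small GTPase Ral, changed by -0.83, and Prkd3, a protein kinase D, by -0.83. A second Rgl1 probe set read 0.24 without a call. Pam, the enzyme that amidates neuropeptides, changed by -0.77 and the calcium-binding protein gene S100a6 by -0.76. Fam184b changed by -0.89, with its other probe sets at -0.10 and 0.01, and Kif13a, a kinesin motor, by -0.54. By brightest probe set Kif13a was the only call among 56 motor and axonal transport genes. Another probe set was called for Kif5c (-0.77) and Dctn6 (-0.27). Slc30a10, a manganese exporter, ran from 5.27 to 5.66 in wild type (median 5.52) and from 4.70 to 5.07 in Q111 (median 4.80), and changed by -0.65 (SE 0.09, adjusted p = 0.00473, or 0.00987 with the set). By brightest probe set it was the largest of 4 called falls among 184 measured solute carriers. The amino acid transporters Slc7a10 (-0.43) and Slc1a4 (-0.36) and the bicarbonate transporter Slc4a4 (-0.24) were called in the first model only. Another probe set was called in both models for Slc5a3 (-1.04), Slc6a6 (-0.95), Slc44a2 (-0.81), Slc4a4 (-0.66) and Slc38a9 (-0.51).

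A pair of neighbouring genes on chromosome 7 that are best known from skin fell together. Dmkn, dermokine, ran from 6.12 to 7.04 in wild type (median 6.65) and from 4.65 to 6.34 in Q111 (median 4.97). The groups overlapped only through Q111 array 4, the array at 6.34. Its difference was -1.51 (SE 0.27, adjusted p = 0.0136, or 0.0246 with the set). Sbsn, suprabasin, ran from 7.63 to 8.18 (median 7.80) and from 6.35 to 7.61 (median 6.58), and changed by -1.09 (SE 0.19, adjusted p = 0.012, or 0.0215). In the annotation no gene lies between Sbsn and Dmkn, and 164 genes lie between Sbsn and Nudt19 on the same chromosome. Klk6, a kallikrein protease also made by oligodendrocytes, changed by -0.86 in the first model only (adjusted p = 0.032, 0.0526 with the set). These 3 were the calls among 12 measured epidermal and kallikrein genes, against 2.24% of all genes, and 6 of the 12 were higher and 6 lower.

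Among the rises, the largest called in both models was Npas2, a clock transcription factor of the forebrain that pairs with Bmal1. It ran from 6.88 to 7.70 in wild type (median 7.40) and from 7.99 to 9.07 in Q111 (median 8.66). Every Q111 array lay above every wild-type array. The difference was 1.24 (SE 0.18, adjusted p = 0.00587, or 0.0117 with the set), a 2.37-fold rise.

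Per3, a period gene on the repressing side of the same clock, moved the other way. Wild-type arrays read 7.46 to 7.92 (median 7.81) and Q111 arrays 6.96 to 7.37 (median 7.14), without overlap. The difference was -0.60 (SE 0.10, adjusted p = 0.0113, or 0.0203 with the set), and 1 of its 4 probe sets had the opposite sign. Tef, a factor that binds D-box sites, changed by -0.33 in the first model only (adjusted p = 0.0342, 0.0612 with the set), with its other probe set at 0.84. The remaining 17 of 20 measured clock genes were not called, Per1 coming nearest at -0.53 (adjusted p = 0.0606), and the list's median was -0.03, equal to that of all genes. The collection times of the tissues are not given, so time of day and genotype cannot be told apart here.

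The Per3 promoter is shown because Tef-type factors bind D-box letters and both genes were called. A stretch of 300 bases that ends 50 past the annotated start (RefSeq, GRCm38.p6, chr4:151044616-151044915, minus strand, 5′ to 3′) has TTATGTAA, in capitals, at positions -205 and -158 from the start. The motif was chosen after this sequence had been seen.
Per3 promoter: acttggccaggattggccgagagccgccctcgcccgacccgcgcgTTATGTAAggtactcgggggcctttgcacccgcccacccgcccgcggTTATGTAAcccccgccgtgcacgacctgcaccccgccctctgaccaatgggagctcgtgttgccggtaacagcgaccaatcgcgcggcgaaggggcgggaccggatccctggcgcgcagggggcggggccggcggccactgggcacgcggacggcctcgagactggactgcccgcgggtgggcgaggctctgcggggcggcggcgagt
Searched on both strands (TTATGTAA and TTACATAA, which overlaps none of the other motifs searched), these letters occur in 0.938% of 32851 promoters of the same length. The E-box letters CACGTG, the site of Npas2 with its partner, occur in 7.15% of promoters and in neither the Per3 nor the Npas2 stretch. A match or its absence describes these letters only.

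All 3 chains of the complement protein C1q rose. C1q starts the classical complement pathway and, in brain, is made mainly by microglia. C1qb ran from 8.66 to 8.99 in wild type (median 8.82) and from 9.31 to 9.70 in Q111 (median 9.52), and rose by 0.67 (SE 0.08, adjusted p = 0.00274, or 0.00741 with the set), with its 3 probe sets at 0.53 to 1.00. C1qc ran from 4.99 to 6.14 (median 5.62) and from 6.30 to 6.96 (median 6.69), and rose by 1.04 (SE 0.18, adjusted p = 0.0113, or 0.0203). C1qa ran from 8.38 to 8.74 (median 8.68) and from 8.91 to 9.31 (median 9.01), and rose by 0.44 (SE 0.09, adjusted p = 0.0217, or 0.0405).

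In none of the 3 did the groups overlap, and the differences in numbers 1 to 3 and 4 to 6 were 0.67 and 0.67 for C1qb, 0.96 and 1.11 for C1qc, and 0.40 and 0.49 for C1qa. The genes lie side by side on chromosome 4 with no gene between them. The fourth measured complement gene, Cd59a, an inhibitor of the pathway's last step, read -0.58 and was not called. Other microglia genes did not move with C1q: of 18 measured, 9 were higher and 9 lower, with a median of 0.00, and their mean level ran from 6.36 to 6.69 in wild type and 6.51 to 6.67 in Q111. The fractalkine receptor gene Cx3cr1 read -0.01 over all arrays, from -0.47 in numbers 1 to 3 and 0.45 in numbers 4 to 6. Olfml3, a secreted microglial protein, was the only called member, at 0.53 in the first model only (adjusted p = 0.0311, 0.0517 with the set).

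The promoters of C1qb and C1qc are shown because the genes are neighbours that moved together. Both are on the minus strand of chromosome 4 (RefSeq, GRCm38.p6, chr4:136886151-136886450 for C1qb and chr4:136892865-136893164 for C1qc, 5′ to 3′), and C1qa has no entry in the table used. Capitals mark GAGGAA, the core letters bound by the microglial factor PU.1, searched on both strands (TTCCTC on the other): at -30 in C1qb and, as TTCCTC, at -193 in C1qc.
C1qb promoter: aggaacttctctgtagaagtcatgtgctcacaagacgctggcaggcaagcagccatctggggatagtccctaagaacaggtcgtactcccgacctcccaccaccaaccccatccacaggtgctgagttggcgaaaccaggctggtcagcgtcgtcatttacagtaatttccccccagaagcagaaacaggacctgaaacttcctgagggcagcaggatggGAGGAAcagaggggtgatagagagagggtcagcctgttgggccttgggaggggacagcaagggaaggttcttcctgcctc
C1qc promoter: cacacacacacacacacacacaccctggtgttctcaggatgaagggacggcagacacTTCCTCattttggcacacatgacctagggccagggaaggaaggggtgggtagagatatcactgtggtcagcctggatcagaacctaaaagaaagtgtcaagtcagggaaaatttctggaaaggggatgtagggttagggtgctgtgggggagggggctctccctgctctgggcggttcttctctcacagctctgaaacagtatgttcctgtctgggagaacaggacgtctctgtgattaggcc
These letters occur in 28.3% of all promoters of this length, so a match in each is a description and no sign of a shared site.

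Other genes called in both models rose in varied classes. Srd5a3, the polyprenol reductase that makes dolichol for N-glycosylation, ran from 5.25 to 5.72 in wild type (median 5.49) and from 5.78 to 6.89 in Q111 (median 6.71), and rose by 1.10 (SE 0.17, adjusted p = 0.00738, or 0.0136 with the set). Q111 array 5, at 5.78, stood well below the others. The rise rests on 1 of the gene's 4 probe sets, as the others read 0.28, 0.12 and -0.07 without a call. It was the only call among 30 dolichol and glycosylation genes, with a median of -0.04.

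Rab27b, a GTPase of secretory vesicles, ran from 7.55 to 7.90 in wild type (median 7.73) and from 8.19 to 8.62 in Q111 (median 8.44), and rose by 0.70 (SE 0.09, adjusted p = 0.00377, or 0.0088 with the set). Its other probe sets read 0.14 and 0.29 without a call. Trp53i11, a p53-induced gene, ran from 6.87 to 7.25 (median 7.01) and from 7.48 to 7.89 (median 7.67), and rose by 0.65 (SE 0.09, adjusted p = 0.00493, or 0.0107). Jun, the AP-1 subunit induced early by activity and stress, ran from 7.64 to 8.02 (median 7.93) and from 8.26 to 8.64 (median 8.40), and rose by 0.51 (SE 0.08, adjusted p = 0.01, or 0.0194). None of these groups overlapped.

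Of 23 measured immediate early genes Jun was the only called rise by brightest probe set. The only other such call was Jund, another AP-1 subunit, at -0.39 in the first model only (limma adjusted p = 0.0423, 0.0708 with the set). A second Jun probe set read 0.17 without a call (limma adjusted p = 0.545), and another probe set of Homer1 was called at 0.84 in the first model only. Of the 23 genes 15 were lower, with a median of -0.13. Cdkn1a, the cell-cycle inhibitor p21, rose by 0.60 and was the only call among 27 apoptosis and p53 target genes, whose median was -0.04. Trp53i11, called above, is not in that list. Zbtb16, a zinc finger repressor, ran from 4.09 to 4.67 in wild type (median 4.46) and from 4.76 to 5.73 in Q111 (median 5.46). It rose by 0.94 (SE 0.18, adjusted p = 0.0187, or 0.0338 with the set), 1.33 in the arrays numbered 1 to 3 against 0.56 in those numbered 4 to 6. Rises called in both models also included the protease gene Prss23 (0.66), the proteoglycan gene Spock1 (0.59), the gasdermin gene Gsdme (0.55) and Tmem59l (0.70). Gsdme lost its call without wild-type array 4, at an adjusted p of 0.0503. A second probe set read -0.02 for Gsdme and -0.09 for Spock1, neither called.

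**Figure D2:**
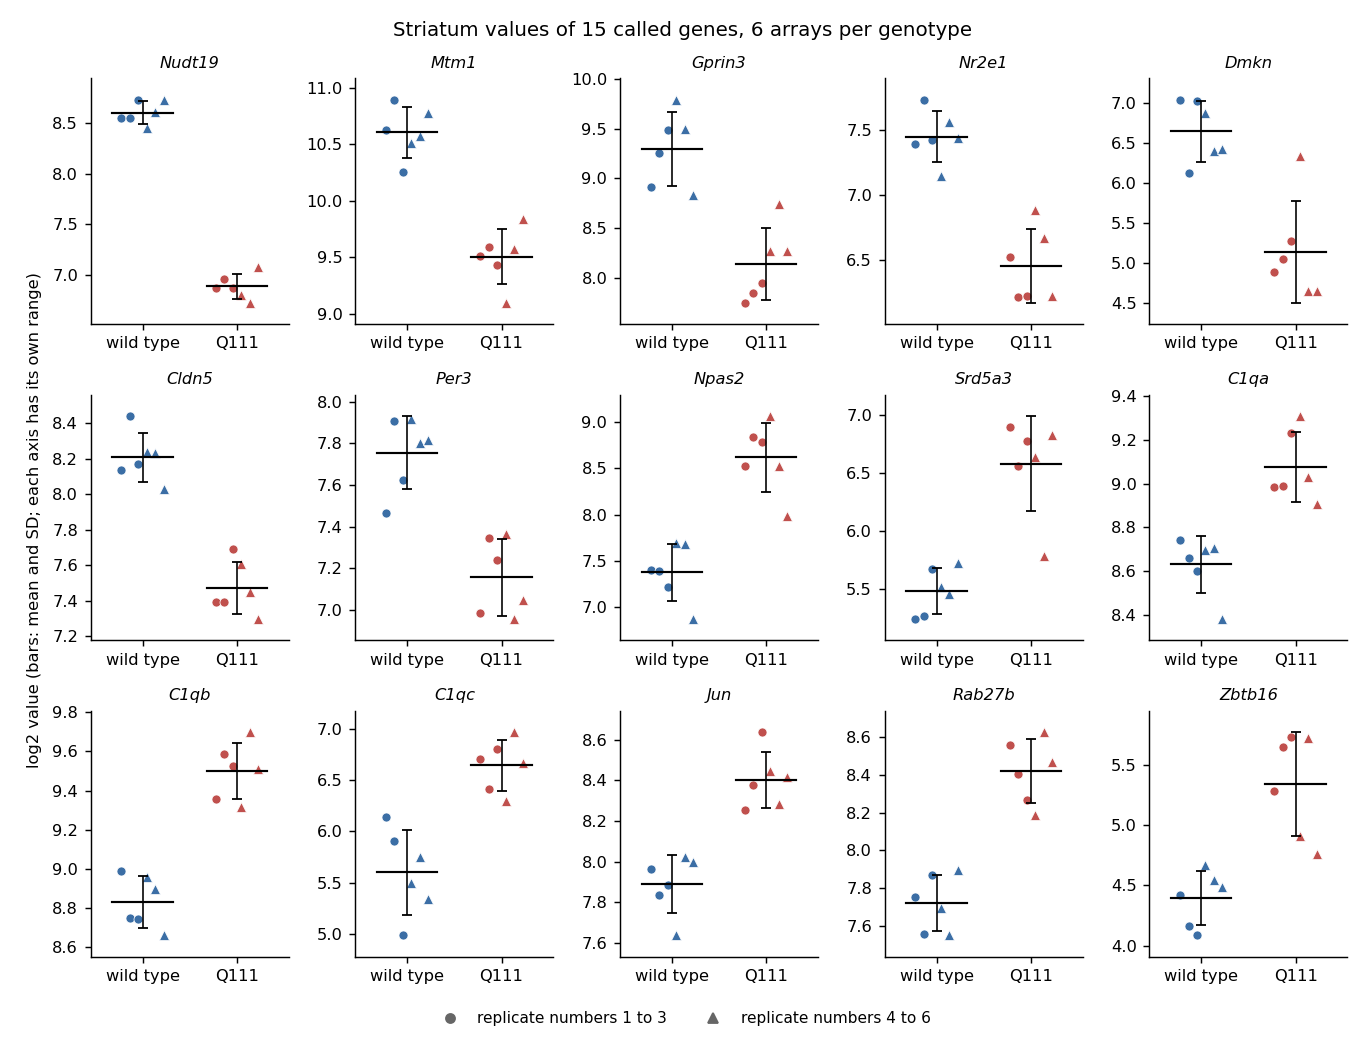
Log2 level in each of the 12 arrays for 15 called genes, wild type and Q111 side by side; circles are arrays numbered 1 to 3, triangles those numbered 4 to 6, and bars the mean and SD (n = 6). Nudt19 has the widest gap between groups, Dmkn overlaps through 1 Q111 array, and the 3 C1q genes are each higher in all 6 Q111 arrays.

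The genes that define striatal projection neurons gave few calls. By brightest probe set none of 38 measured genes shared by both pathways was called. Another probe set was called in both models for Syndig1l (-1.04). Of the 38 genes 30 were lower, with a median of -0.19 against -0.03 for all genes. The median was -0.46 in numbers 1 to 3 but 0.17 in numbers 4 to 6. Their mean level ran from 10.27 to 11.19 in wild type and from 10.39 to 10.96 in Q111. Pde1b, a calmodulin-dependent phosphodiesterase, read -0.51 (adjusted p = 0.106), at -0.87 and -0.15 in the sets, and the striatal GTPase gene Rasd2 -0.50. The list's one large positive value was Rgs8 at 2.14, which was chosen for mention after its values were seen: it was not called (adjusted p = 0.133), its wild-type arrays spanning 4.88 to 9.41.

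Indirect pathway genes were lower in both sets. Of 10 measured, 9 were lower, with medians of -0.23 over all arrays, -0.46 in numbers 1 to 3 and -0.21 in numbers 4 to 6, and the mean level ran from 9.73 to 10.03 in wild type and from 9.48 to 9.75 in Q111. Both calls were falls. Gprin3, a G protein regulated neurite outgrowth gene, ran from 8.83 to 9.79 in wild type (median 9.37) and from 7.75 to 8.74 in Q111 (median 8.11), and changed by -1.16 (SE 0.19, adjusted p = 0.01, or 0.0107 with the set). Plxdc1, a plexin domain receptor, changed by -0.94 (adjusted p = 0.0113, or 0.0203), with overlapping groups. In cerebellum Gprin3 read -0.80 and Plxdc1 -0.48, neither called there, and the list's median was -0.08. No difference between the tissues was called for either gene, so these falls were not shown to be particular to striatum.

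The classical indirect markers were not called. Penk read 13.81 ± 0.21 in wild type and 13.47 ± 0.17 in Q111, a difference of -0.34 (adjusted p = 0.108), and Drd2 read -0.25. Of 12 direct pathway genes none was called and the median was -0.04. A difference between the pathways was not tested.

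Genes of cerebral cortex neurons, a tissue that adjoins the dissected striatum, were higher in Q111. Of 22 measured, 20 were higher, with a median of 0.36, but this lay in numbers 1 to 3 (0.67) and scarcely in numbers 4 to 6 (0.06). Their mean level ran from 7.25 to 7.88 in wild type and from 7.49 to 8.21 in Q111. Neurod6, a factor of cortical excitatory neurons, ran from 5.32 to 6.23 (median 5.82) and from 5.76 to 7.42 (median 7.22), and rose by 1.12 in the first model only (adjusted p = 0.0409, 0.0642 with the set). Rtn4r, the Nogo receptor, rose by 0.76 in both models (adjusted p = 0.0136, or 0.0251), and Fezf2 read 0.71 without a call (adjusted p = 0.0693).

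This shift stands beside every count above. With the mean level of the cortex list of each array as a covariate 18 genes were called, 16 of them among the 232: Nudt19, Mtm1, Pank1, Cldn5, C1qb, Npas2, Rab27b, Rbp4, Slc30a10, Prkd3, Lrp4, Tmem59l, Lrrc73, Med20, Dpy19l3 and Washc4. The median size of the 232 differences was 0.42 with the covariate and 0.44 without, and 130 of them were smaller with it. Dmkn went from -1.51 to -0.97 (limma adjusted p = 0.0945) and Kalrn, a gene of dendritic spines, from 0.45 to 0.25. Mtm1 went from -1.10 to -1.33 and Npas2 from 1.24 to 1.42. Neurod6 went from 1.12 to 0.55 and Rtn4r from 0.76 to 0.48, but both are in the cortex list. The covariate holds their own values, so their shrinkage is partly built in. Gabra5, a GABA receptor subunit of cortex and hippocampus, rose by 0.56 in both models, at 0.58 in numbers 1 to 3 and 0.55 in numbers 4 to 6. Whether its transcript came from neighbouring tissue was not tested. The Gabra5 call was lost, at a limma adjusted p of up to 0.067, when any 1 of 6 arrays was left out (wild type 4 or 5, Q111 1, 2, 5 or 6).

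Thalamus and septum genes changed direction between the sets. Of 15 measured none was called, and the median was 0.82 for numbers 1 to 3 and -0.59 for numbers 4 to 6. Wild-type array 6 had the highest mean level, 8.14, and Q111 array 6 the lowest, 6.31. Without these arrays 69 genes were called, 55 of them among the 232, or 19 with the set in the model, 17 of them among the 95. Calls in both models that were lost in this fit without the set included C1qc, Per3, Dmkn, Sbsn, Cox5b and Hsp90b1. Whether the tissue content of these arrays or the smaller number of arrays removed the calls cannot be told apart.

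**Figure D3:**
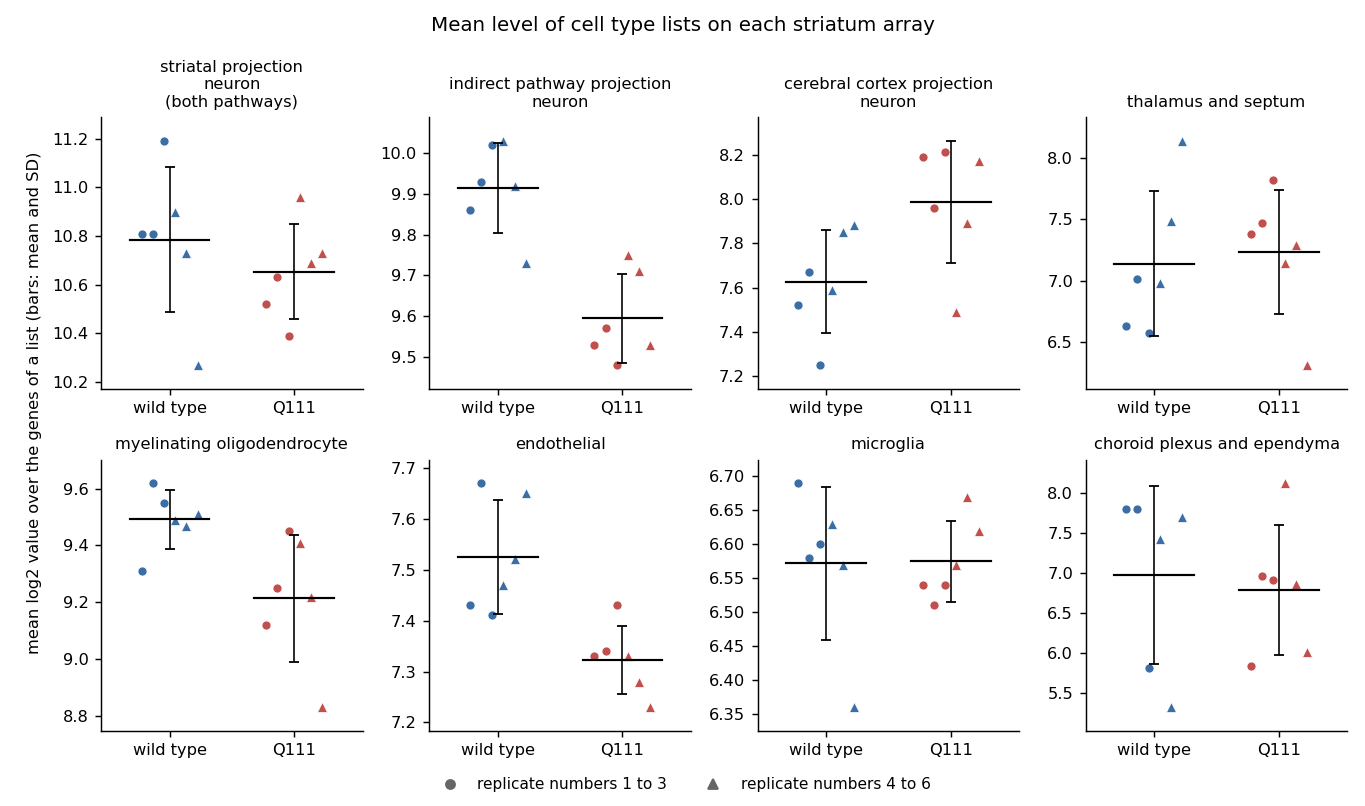
Mean log2 level of each array over 8 lists of cell type and region genes; circles are arrays numbered 1 to 3 and triangles those numbered 4 to 6. The oligodendrocyte, endothelial and indirect pathway levels lie lower in Q111, the cortex level higher, and the thalamus and septum and choroid plexus levels vary more within a genotype than between genotypes.

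Myelinating oligodendrocyte genes were lower almost without exception. Of 23 measured, 22 were lower, with medians of -0.25 over all arrays, -0.15 in numbers 1 to 3 and -0.36 in numbers 4 to 6. The mean level ran from 9.31 to 9.62 in wild type and from 8.83 to 9.45 in Q111, so the groups overlapped. Only Klk6 (-0.86) and the protease gene Adamts4 (-0.46, adjusted p = 0.0409, 0.0627 with the set) were called, both in the first model only, which is 2 of 23 against 2.24% of all genes. Mog, a myelin surface protein, read -0.29 and Mbp, myelin basic protein, 0.02, neither called. Precursors of these cells showed no such shift, with 7 of 13 genes lower and a median of -0.02.

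Endothelial genes held a clear call. Cldn5, the main tight junction protein of the blood-brain barrier, ran from 8.03 to 8.44 in wild type (median 8.20) and from 7.30 to 7.69 in Q111 (median 7.42), and fell by 0.73 (SE 0.09, adjusted p = 0.00189, or 0.00475 with the set). The groups did not overlap. With Ets1 it made 2 calls of 18 measured genes, against 2.24% of all genes; 4 of the 18 were higher, against 41.6% of all genes, and the median was -0.14; the mean level ran from 7.41 to 7.67 and from 7.23 to 7.43. Cav1, the caveolin of endothelial membrane pits, which is not in that list, ran from 5.56 to 6.12 (median 5.74) and from 4.85 to 5.26 (median 5.06) and fell by 0.76 (SE 0.11, adjusted p = 0.00587, or 0.0121).

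Astrocyte genes had a median near that of all genes. Of 24 astrocyte genes 13 were lower, with a median of -0.08. By brightest probe set the 2 calls, Slc7a10 and Slc4a4, came in the first model only. Another probe set was called in both models for Slc4a4 (-0.66, limma adjusted p = 0.0125, or 0.0191 with the set) and for Aqp4 (-0.63). Of 17 newborn neuron and progenitor genes 11 were lower, with a median of -0.07 over all arrays, -0.19 for numbers 1 to 3 and -0.18 for numbers 4 to 6, and the median was -0.24 without Q111 array 2 and -0.04 without wild-type array 6. Their mean level was 7.67 ± 0.15 in wild type and 7.45 ± 0.10 in Q111, from 7.45 to 7.83 and from 7.31 to 7.57. The calls were Nr2e1 and Prom1, a membrane protein of progenitors, at -0.68 in the first model only (adjusted p = 0.0456, 0.0709 with the set). Choroid plexus genes gave no call among 15, with medians of -0.18 over all arrays, -0.37 for numbers 1 to 3 and 0.13 for numbers 4 to 6, and mean levels of 5.32 to 7.81 in wild type and 5.84 to 8.13 in Q111. Leaving out wild-type array 5 gave a choroid plexus median of -0.35, and leaving out wild-type array 1 gave -0.03.

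Some groups of mitochondrial genes were slightly lower, with few calls. Of 34 complex I subunits 29 were lower, with a median of -0.09. None of them was called by brightest probe set, and another probe set was called for Ndufa7 (-0.31) in the first model only. Of 18 ATP synthase subunits 16 were lower, with a median of -0.08. Of 72 mitochondrial ribosomal proteins 57 were lower, with a median of -0.09. The complex I median was -0.00 in numbers 1 to 3, where that of all genes was -0.01, and -0.17 in numbers 4 to 6, where that of all genes was -0.08. After each array was centred on its median it was -0.04, beside 0.02 for all genes. The medians in numbers 1 to 3 and 4 to 6 were -0.01 and -0.13 for ATP synthase, and -0.04 and -0.18 for mitochondrial ribosomal proteins. Other lists lay nearer the -0.03 of all genes. These were complex II and III (-0.05), cytochrome oxidase (-0.04), assembly factors and biogenesis regulators (-0.02), and glycolysis and the citric acid cycle (-0.04).

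Single subunits were called. Cox5b, a subunit of cytochrome oxidase, ran from 12.78 to 12.97 in wild type (median 12.89) and from 12.53 to 12.67 in Q111 (median 12.56), and fell by 0.30 (SE 0.05, adjusted p = 0.0159, or 0.0359 with the set), with its 4 probe sets at -0.38 to -0.25. Atp5g1, a membrane subunit of the ATP synthase, ran from 11.59 to 11.91 (median 11.71) and from 11.23 to 11.47 (median 11.41), and fell by 0.34 (SE 0.07, adjusted p = 0.0266, or 0.0467). Its call was lost without wild-type array 4 or 6 or Q111 array 2, 5 or 6, with an adjusted p of up to 0.0624. Atp5g2, which encodes the same mature subunit, changed by -0.27 in the first model only (adjusted p = 0.0334, 0.0603 with the set). The 1 mitochondrial ribosomal call, Mrpl33, went the other way at 0.31, in the first model only.

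A pair of chaperones of the endoplasmic reticulum rose. Hsp90b1, the HSP90 of that compartment, ran from 11.84 to 12.02 in wild type (median 11.88) and from 12.12 to 12.35 in Q111 (median 12.19), and rose by 0.31 (SE 0.06, adjusted p = 0.0193, or 0.0405 with the set). Calr, the calcium-binding chaperone calreticulin, rose by 0.32 in the first model only (adjusted p = 0.0451, 0.074 with the set). Of 32 measured genes 23 were higher, with a median of 0.05, which was 0.20 for numbers 1 to 3 and -0.10 for numbers 4 to 6. By brightest probe set none was called of 35 cytosolic chaperones, 41 proteasome subunits and 46 autophagy and lysosome genes. Another probe set was called for the chaperone Dnajb6 (1.04) and for the autophagy gene Becn1 (-0.28, with its brightest at 0.16).

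By brightest probe set, RNA-binding and non-coding genes held several falls and 2 rises. Among 58 splicing factors and RNA-binding proteins, Srsf9 (-0.35) and Hnrnpdl (-0.28) fell and Elavl2, a neuronal RNA-binding protein, rose (0.53), all in both models, and the list's median was -0.02. Other Elavl2 probe sets read 0.09 and 0.16 without a call. The larger rise in the list was Marf1, at 0.80 in the first model only (limma adjusted p = 0.0407, 0.0553 with the set). Other Marf1 probe sets read -0.09 and 0.28 without a call. In all, 2 members of the list were called up and 3 down. Another probe set was called for Qk (-0.58), Hnrnpu (-0.28) and Srsf2 (-0.52, and -0.47 for a further one). Of 25 non-coding and snoRNA host genes 20 were lower, with a median of -0.15. Malat1, an abundant nuclear RNA, ran from 11.92 to 12.48 in wild type (median 12.34) and from 11.30 to 12.20 in Q111 (median 11.62), and changed by -0.61 (SE 0.15, adjusted p = 0.0466, or 0.0325 with the set). Its groups overlapped, 2 of its 7 probe sets had the opposite sign, and leaving out any 1 of 10 arrays ended the call without the set, with an adjusted p of up to 0.0956. Snhg6, a snoRNA host, fell by 0.30 in both models. Another probe set was called for Gas5 (-0.99, and -0.61 for a further one) and Snhg14 (-0.48).

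A pair of potassium channels and a pair of G protein regulators rose. Kcnn2, a calcium-activated potassium channel of small conductance, ran from 8.21 to 8.37 in wild type (median 8.31) and from 8.54 to 8.84 in Q111 (median 8.72), and rose by 0.40 (SE 0.06, adjusted p = 0.00969, or 0.0194 with the set). Kcnma1, the channel of large conductance, rose by 0.38 in the first model only. These were the calls among 16 genes of their channel classes, against 2.24% of all genes, with a median of 0.07. Rgs17 rose by 0.48 in both models and was, with Rgs12, 1 of 2 calls among 16 regulators of G protein signalling. Of these 16 regulators 8 were higher and 8 lower, and another probe set was called for Rgs7bp (-0.39) in the first model only. By brightest probe set, of 30 voltage-gated potassium channels, 24 calcium and sodium channels and 16 ionotropic glutamate receptor subunits none was called; another probe set was called for the potassium channel genes Kcna4 (-0.63) and Kcnv1 (0.72), the sodium channel gene Scn8a (-0.65) and Cacng2 (0.36).

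Rises in the first model only also came from scattered classes. They included Polr1c, a subunit of RNA polymerases I and III (0.89), Rbp4, a retinol carrier (0.68), Sox5, a transcription factor of developing neurons (0.59), Kalrn, an exchange factor of dendritic spines (0.45), Fbxw7, a ubiquitin ligase subunit (0.38), and Grm7, a presynaptic glutamate receptor (0.36). Their adjusted p-values ran from 0.0318 for Fbxw7 to 0.0497 for Sox5. A second Polr1c probe set read -0.21 without a call. Falls of the same standing included Arf5, a small GTPase of the Golgi (-0.71), Nr2f6, an orphan nuclear receptor (-0.57), Pnp, a purine salvage enzyme (-0.38), Ephb1, an ephrin receptor (-0.36), Id4, an inhibitor of helix-loop-helix factors (-0.33), and Pcp4, a calmodulin-binding peptide (-0.22).

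By each gene's brightest probe set, several pathways often linked to huntingtin gave no call in either model. None was called among 31 huntingtin partners (median 0.02), 20 neuronal targets of the repressor REST (0.10), 13 neurotrophin and Trk genes (0.02), 27 CREB and cAMP signalling genes (0.06) or 26 DNA repair genes (0.00). Of 29 cholesterol synthesis and transport genes 22 were lower, with a median of -0.10 and none called. Another probe set was called for some members: Prkar1b, a protein kinase A subunit (0.79, adjusted p = 0.0154, or 0.0246 with the set), Adcy9 (0.43), Ntrk2 (0.32), Ntrk3 (1.05), Sorcs3 (0.61), the kinesin gene Kif5c (-0.77), Mvk (-0.45) and Stard4 (-0.57). A missed call does not show that these genes were alike in the genotypes. In all, 43 of 80 lists had at least 1 called member, 69 of 2028 listed genes were called beside 2.24% of all genes, and the medians of 42 lists differed in sign between the replicate sets.

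**Figure D4:**
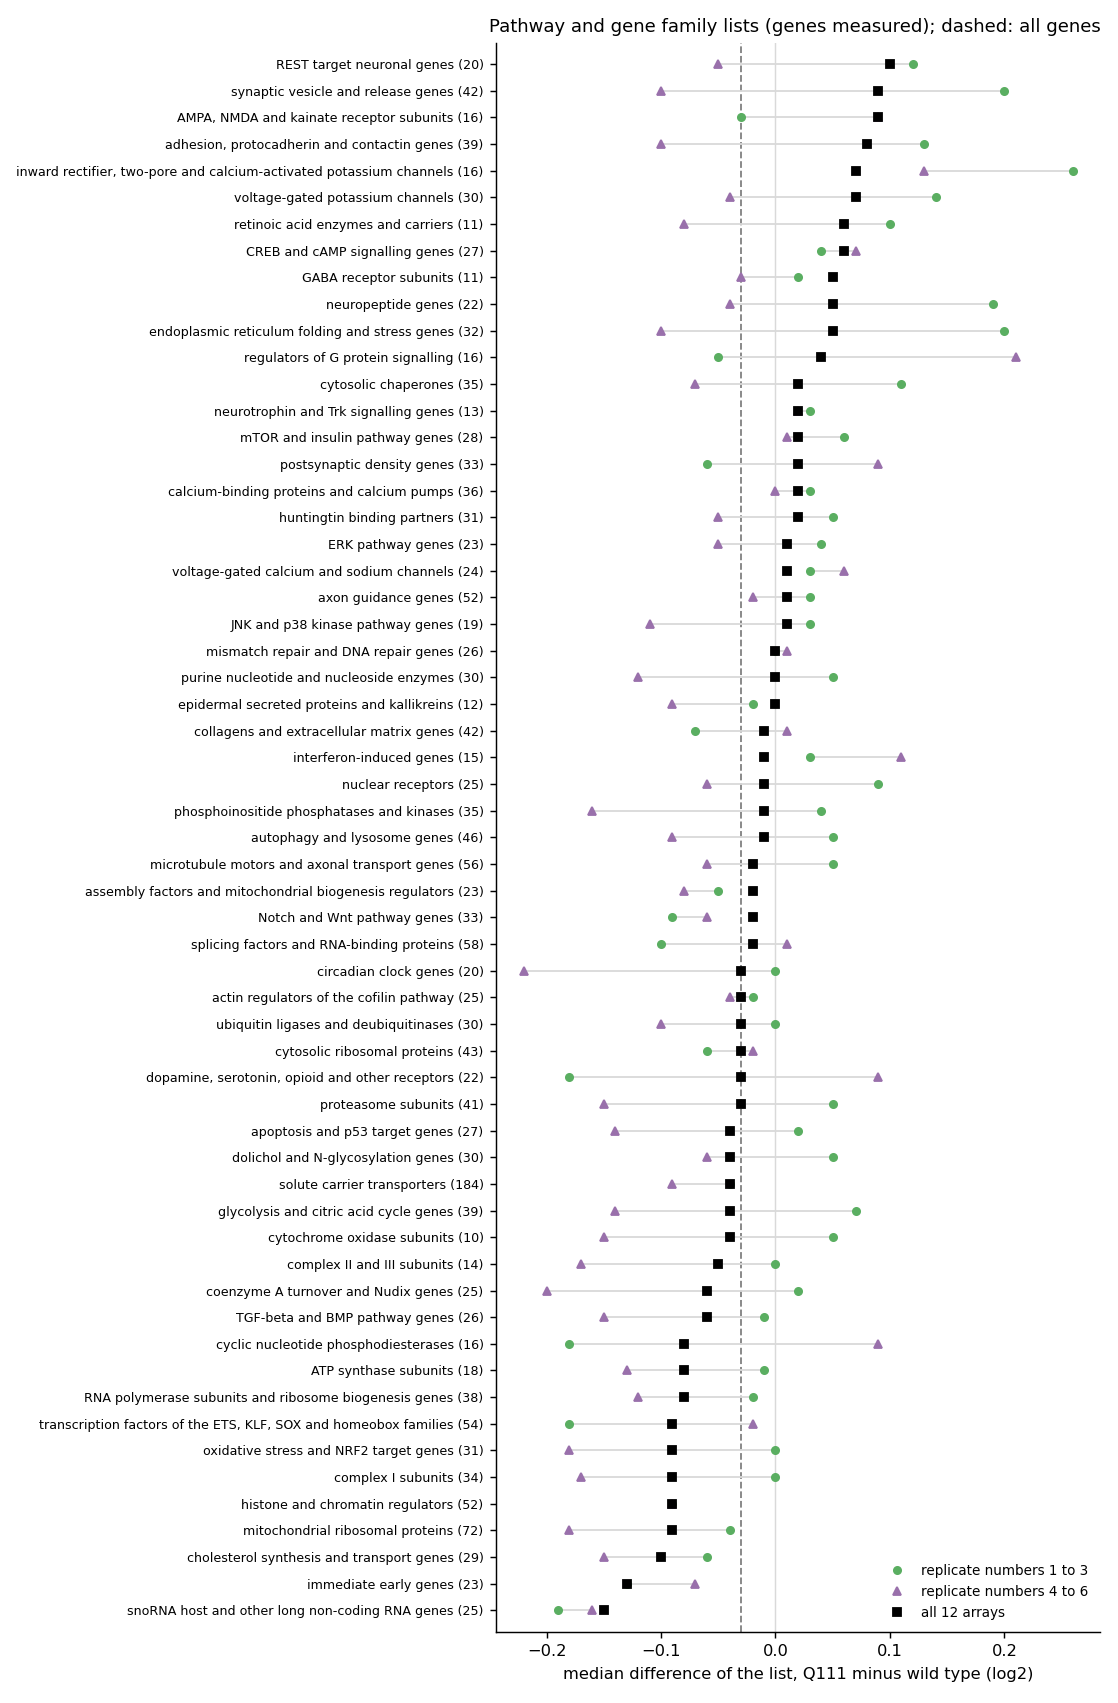
Median Q111 minus wild-type difference (log2) of each process list with 10 or more measured genes, over all 12 arrays and within each replicate set; the dashed line is the median of all genes, -0.03. Most medians lie within a narrow band around that line and the values of the sets often fall on either side of it.

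Some genes differed strongly in each set but in opposite directions. The genotype difference itself differed between the sets for 607 probe sets (3.11%) and 198 genes (1.91%), and none of these was among the 232. Slc17a6, a vesicular glutamate transporter of thalamic neurons, read 2.02 in numbers 1 to 3 and -1.01 in numbers 4 to 6 (adjusted p of the difference 0.0372). Tcf7l2, a thalamic transcription factor, read 0.90 and -1.53 (adjusted p = 0.0048), and the neuropeptide gene Cartpt 1.44 and -1.40 (adjusted p = 0.0396). These genes were chosen for mention after their values were seen, and the first pair are in the thalamus and septum list, whose part in these values was not tested.

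The genotype effect in striatum was set against that in cerebellum. Of the 232 genes, 178 had the same sign in cerebellum, where 33 genes were called (0.318%), 14 of them among the 232. The share of all genes with the same sign was not counted, so the 178 are a description only. The median of all genes was -0.03 in striatum and -0.05 in cerebellum. Nudt19 was lower there by as much (-1.83), as were Pank1 (-0.72), Per3 (-0.62), Ssh1 (-1.11) and Sbsn (-1.11), while Srd5a3 was higher (0.77). These genes were called in both tissues. The C1q genes read 0.35 to 0.85 in cerebellum without a call there, and no difference between the tissues was called for them.

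The genotype difference itself differed between tissues for 18 probe sets (0.0922%) and 9 genes (0.0867%), 7 of them called in striatum. Dmkn fell in striatum by 1.51 and read -0.01 in cerebellum (difference between tissues -1.49, adjusted p = 0.0418). Nr2e1 fell by 0.99 and read -0.00 (difference -0.99, adjusted p = 0.0068), and Fam184b fell by 0.89 and read -0.04 (difference -0.86, adjusted p = 0.034). Jun rose by 0.51 in striatum and read -0.37 in cerebellum (difference 0.88, adjusted p = 0.0089). The other 3 called in striatum were Lrp4, Numbl and Tmem41a, with differences of 0.72, 0.57 and -0.41. The labels do not say whether the tissues came from the same mice, and with either block on the replicate number 1 or 2 probe sets were called. Without a block, Nr2e1, Jun and Lrp4 kept the call whichever striatum array was left out. Dmkn lost it on leaving out any 1 of 6 arrays (wild type 3 or 4, Q111 1, 3, 5 or 6), Fam184b any 1 of 3 (wild type 3, Q111 1 or 6), Numbl any 1 of 10 and Tmem41a any 1 of 8, with adjusted p up to 0.105. The lowest value of an array was 0.36 to 0.38 in striatum and -0.77 to -0.66 in cerebellum, so levels were not compared between the tissues and only differences within a tissue were set side by side.

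**Figure D5:**
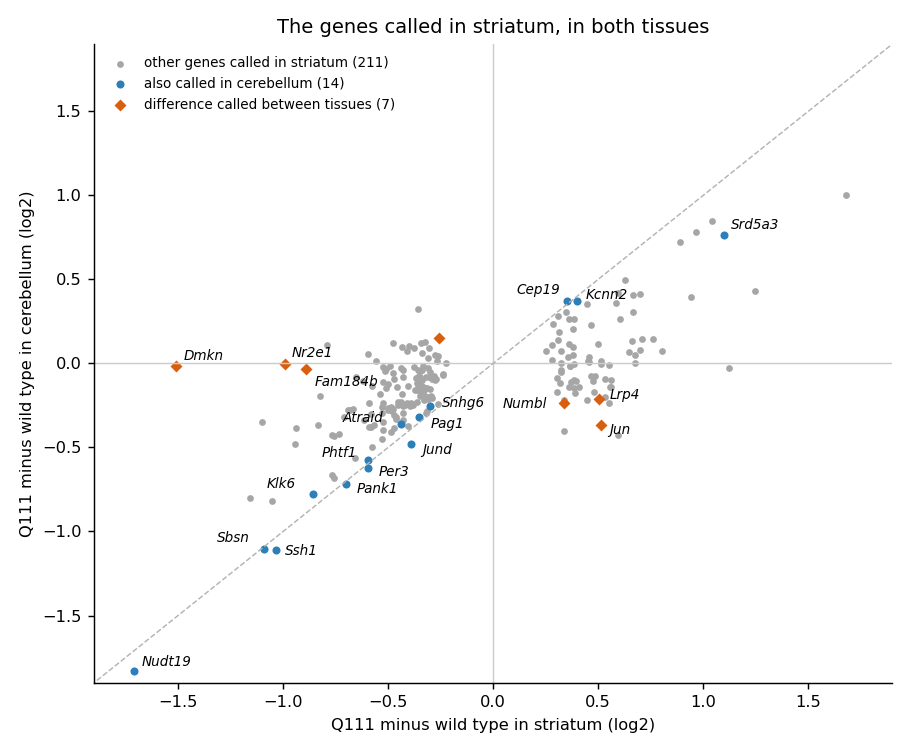
Each point is 1 of the 232 genes called in striatum, with its Q111 minus wild-type difference in striatum on the x axis and in cerebellum on the y axis (log2 units); 14 genes also called in cerebellum and 7 whose difference was called between tissues are marked. Nudt19 lies near the diagonal at -1.71 and -1.83, Dmkn and Nr2e1 near 0 on the y axis, and Jun below it.

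Called genes lay on each autosome and on X. Against 2.24% of all genes, the share called ran from 0.845% on chromosome 14 and 0.877% on X to 3.92% on chromosome 4 (25 of 637), which holds Per3 and the C1q genes. With the set it was 2.2% on chromosome 4, against 0.915% of all genes. Chromosome 5, which holds Htt, had 20 calls of 678 (2.95%). Among 10339 pairs of measured neighbours 12 had both genes called, 9 of them with the same sign, the C1q genes and Sbsn with Dmkn included.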

How the data were processed

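Total RNA was labelled with biotin and hybridised to whole-genome Affymetrix mouse arrays, 6 for each genotype in striatum. The authors deposited 1 normalised value per probe set and array, made with GCRMA per the submitters' processing notes (version: not given in the sources), which corrects background by probe sequence and summarises probes. The values the authors deposited were read as log2 from their range in striatum, 0.36 to 16.33, since the log base is not stated, and a difference of 1 as 2-fold. Because GCRMA compresses dim values, a filter on the mean (4 or more over the 12 arrays) was applied without regard to genotype.

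Of 45101 probe sets 64 controls were left out. Symbols came from the platform annotation of 2016: 34945 probe sets have 1 symbol, 932 several and 9160 none, and only the first kind is named. GRCm38.p6 gene tables gave neighbours and promoters, and the files name no build of their own. Of the 232 called genes 190 had a promoter entry.

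Q111 was tested against wild type with limma 3.58.1 in R 4.3.3 (lmFit and eBayes, Benjamini-Hochberg over all kept probe sets), without and with the replicate set (1 to 3, 4 to 6). Exact two-sided permutation tests over the arrays served single values (smallest possible p 0.00216). Interactions with tissue and with set were tested in like models. The scripts were tested on simulated data.

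Named genes were Htt, the 15 largest rises and 15 largest falls called in both models, up to 4 called members of each list (or, where none was called, up to 2 with the lowest p) and the 5 called genes whose sets lay furthest apart. The members, lists and rule were chosen with earlier results of these data known. The alternatives tried, such as other filters, scalings, covariates and left-out arrays, are given in the closing section. No array pair held identical values.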

Additional observations from a re-analysis of the deposited data

Results flagged for a closer look

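In 8 of 166 groups of 6 arrays examined for the named genes, the highest or lowest array stood far from the others; chance alone gives such an array in about 1 group of 20. Wild-type array 1 was the high one for Pam (9.50), Jund (11.22), Marf1 (9.46) and Numbl (7.60). Among the Q111 arrays, array 4 was the high one for Dmkn (6.34) and the low one for Neurod6 (5.76) and Nr2f6 (4.97), and array 5 was the low one for Srd5a3 (5.78).

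The genotype difference itself differed between striatum and cerebellum in limma's interaction test for Dmkn (-1.49), Nr2e1 (-0.99), Fam184b (-0.86), Jun (0.88) and Numbl (0.57), each value being the striatum difference minus the cerebellum difference.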

How the results depend on the processing

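The count of 499 called probe sets moved with most choices. It was 229 with the replicate set in the model (229 with quantile normalisation and 233 with median centring added), 287 with no filter, 328 with Xist, 252 with the 3′ minus 5′ control difference and 41 with the cortex level as a covariate, 95 in numbers 1 to 3 alone and 736 in numbers 4 to 6 alone (43.6% lower). It was 61 at an adjusted p under 0.01 and 1056 under 0.1. Leaving out 1 array gave 194 (without wild type 4) to 644 (without wild type 1), or 80 to 328 with the set. Alternatives chosen after seeing the data were those without both arrays numbered 6 (142, or 52 with the set), those joining the set to a scaling and those leaving out an array with the set. With the replicate number as a replicate block, although the numbers do not pair the arrays (same-numbered arrays of the genotypes had correlations of -0.414 to -0.081 between their deviations, and those of the tissues -0.054 to 0.190), 60 were called. The share of called probe sets that were lower was 70.9%, against 55.8% after quantile normalisation and 47.9% after median centring. The 18 probe sets called between the tissues became 1 with the replicate block, 2 with genotype and number as a block shared by the tissues (chosen after seeing the data) and 6 to 48 when 1 array was left out. None of the 7 such genes that were called in striatum kept the call with the first block (adjusted p from 0.0528 for Lrp4 to 0.188 for Tmem41a), and of these Nr2e1 kept it with the second (adjusted p = 0.043). The cause was not tested. The 607 called between the sets became 404 with no filter. The Htt difference of -0.00 had no settled sign: its other probe sets read 0.03 and 0.12, and leaving out 1 array gave -0.04 to 0.04. The 3′ minus 5′ difference of 0.06 was -0.07 for Gapdh and 0.20 for actin (exact permutation p = 0.0173). Tef averaged over its probe sets read 0.25. Signal near background limits dim genes such as Ssh1 and Zbtb16.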
